A study of Mus musculus with 4 samples.

Results

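The barcodes described here were the Scgb1a1-rich secretory barcodes of aged mouse lung, that is, the droplets whose RNA carried the secretoglobins of airway club cells. Kept barcodes had at least 500 genes, at least 1000 unique molecular identifiers (UMIs, each counting 1 captured RNA molecule) and at most 10% mitochondrial UMIs. A member had at least 20 UMIs of Scgb1a1 and at least 2 UMIs of 2 or more of Cyp2f2, Scgb3a2, Scgb3a1 and Muc5b. It had at most 1 UMI of Ptprc and of Cdh5, and fewer than 3 of 6 ciliated-cell genes with a UMI. The rule found 63 members among 68675 kept barcodes in 4 libraries. BPTES replicates 1 and 2 held 14 and 21, and DMSO replicates 1 and 2 held 14 each.

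The study gave BPTES, a small molecule that inhibits the use of glutamine, or its vehicle DMSO, to male C57BL/6 mice for 1 month from an age of 19 months. Each group had 2 libraries, which the labels call samples 1 and 2 without saying whether they came from separate animals. Each library combined 20000 CD45-negative with 9000 CD45-positive cells that had been sorted from the Liberase digest of the same lung tissue, CD45 being the leukocyte surface marker encoded by Ptprc. P-values here measure only the spread between these libraries, which may be technical, and the mixing ratio sets any share of all barcodes. The labels give both groups the genotype C57BL/6 and no other allele.

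Club cells line the conducting airways between the ciliated cells. They secrete small proteins of the secretoglobin family and mucosal defence proteins into the airway fluid, and they hold much of the lung's cytochrome P450 and glutathione transferase activity. They also act as progenitors that restore the airway lining after injury. Glutamine carbon and nitrogen feed the citric acid cycle and glutathione synthesis.

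The libraries held between 260346570 and 342107092 UMIs in 16440 to 21986 barcodes, of which 91.0% to 93.5% were kept. The members' own UMIs numbered 497963 and 470179 for BPTES and 255724 and 454488 for DMSO. Pairs of libraries shared between 75 and 121 barcode sequences, and no sequence was a member in both libraries of a pair. The kept barcodes of all types included 445 ciliated and 1180 alveolar type 2 barcodes, the classes used for comparison, which were chosen by marker UMIs in the same way.

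The rule rests on Scgb1a1 (ENSMUSG00000024653, chr19:9083642-9087956 in GRCm38.p6), which encodes the club cell secretory protein, and few barcodes lay near its limit. Only 4 barcodes that met the other conditions lay just outside, with 17, 11, 13 and 14 Scgb1a1 UMIs, and 3 members lay between 20 and 49. In most members the level was far above the limit. The median was 21096 Scgb1a1 UMIs in BPTES replicate 1, 3425 in BPTES replicate 2, 6180 in DMSO replicate 1 and 19142.5 in DMSO replicate 2. Free RNA gave a low background: endothelial barcodes had a median of 0 or 1 Scgb1a1 UMI, and at most 0.147% of them reached 20 UMIs. Alveolar type 2 barcodes reached 20 UMIs more often, in 19.8% to 37.8% of barcodes per library, and ciliated barcodes in 34.6% to 45.3%. These values chose the members and are given as a description.

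The data fitted the label of club cells only in part. Scgb1a1 was the leading gene in 53 of the 63 members and made up more than 50% of all UMIs in 39. The second gene after it was Gm42418, a ribosomal RNA locus, in 48 members. Malat1, a long noncoding RNA retained in the nucleus and abundant in nearly all cell types, was at 0 to 8 UMIs in 50 members and at 33 to 1338 in the other 13. In the comparison classes its median per library lay between 422 and 500 UMIs in ciliated barcodes and between 975 and 1009 in alveolar type 2 barcodes. None of the 59 barcodes that were Scgb1a1-rich but left out for ciliated genes had fewer than 20 Malat1 UMIs.

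Genes detected and mitochondrial share were also lower in members than in ciliated barcodes. Across libraries, the members' medians of both did not rise with Malat1, but the Malat1 medians lay close together. Among single members both were mostly higher where Malat1 was high, as given below. The Malat1 medians were 2.5 and 4 UMIs in BPTES and 1.5 and 5 in DMSO. Thinned to 2500 UMIs each with Scgb1a1 kept, the members showed a median of 419 and 474 genes in BPTES and 489.5 and 398 in DMSO. Ciliated barcodes showed 1569 to 1583 and alveolar type 2 barcodes 1111 to 1137. Scgb1a1, which chose the members, filled much of these 2500 UMIs in many of them and left fewer for other genes. The rule asked for only 20 Scgb1a1 UMIs, so it did not set that share. The part of Scgb1a1 in the low gene number was not tested. A core barcode with 79.6% Scgb1a1 showed 300 genes, and a core barcode with 22.2% showed 770. The median mitochondrial share, also taken with Scgb1a1 kept, was 0.0897% and 1.17% in the BPTES members and 0.223% and 0.0321% in the DMSO members. It was 3.22% to 3.43% in ciliated barcodes and 1.19% to 1.41% in endothelial barcodes. Members with at least 33 Malat1 UMIs showed 537 to 1400 genes at 2500 UMIs and 0.836% to 5.21% mitochondrial UMIs. The other members, with at most 8, showed 286 to 1027 genes and 0% to 4.09%. The former held at most 43.2% Scgb1a1 and the latter up to 79.6%, and its part in this was not tested. Epithelial identity by keratins and junction genes (2 or more of Epcam, Cdh1, Krt8, Krt18 and Cldn7 with at least 2 UMIs) was met by 32 of 63 members. The members are therefore called secretory barcodes here, and what fraction of a cell each one held was not tested.

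**Figure D1:**
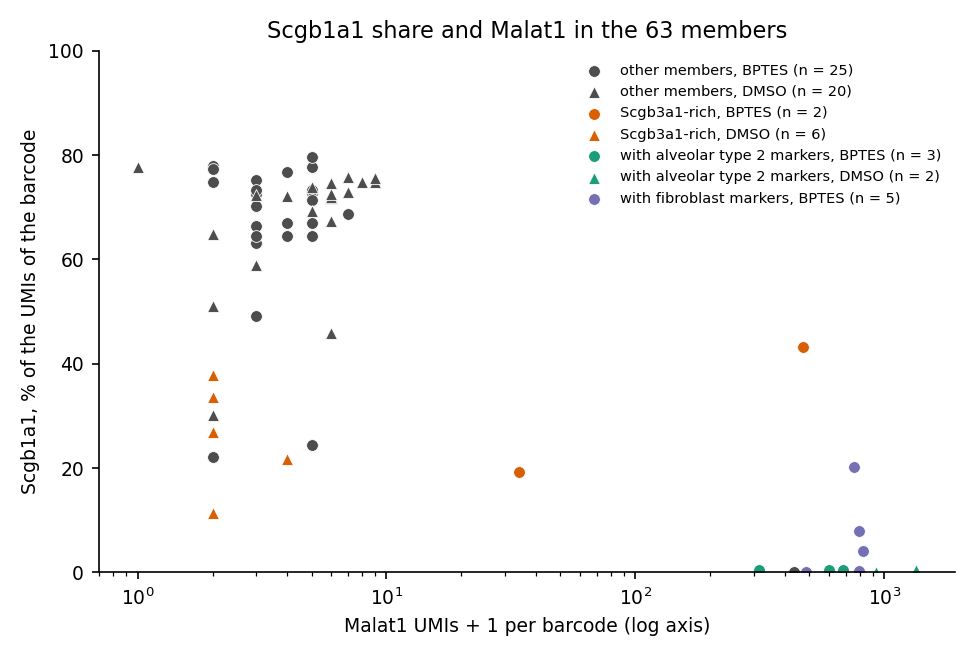
Each point is 1 of the 63 members, placed by its Malat1 UMIs plus 1 (log axis) and by the percent of its UMIs that came from Scgb1a1, with colour for the kind of member (the core and 1 further barcode share a colour) and shape for the group. A cluster of 39 points lies above 50% Scgb1a1 with at most 8 Malat1 UMIs, and every member with alveolar type 2 or fibroblast markers lies at 314 Malat1 UMIs or more.

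**Figure D2:**
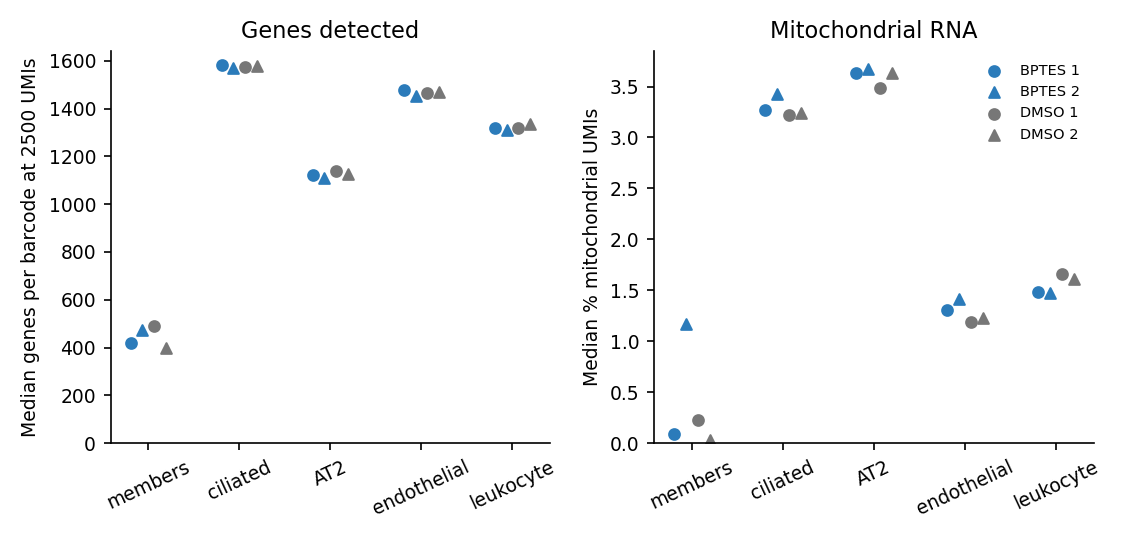
Median number of genes per barcode after thinning to 2500 UMIs (left) and median percent of mitochondrial UMIs (right) for members, ciliated, alveolar type 2 (AT2), endothelial and leukocyte barcodes, 1 point per library. In all 4 libraries the members lie below every other class for genes detected, with Scgb1a1 UMIs counted in the 2500.

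Of the 63 members 62 fell into 4 kinds, which were set apart after their values were seen and carry no test. The main kind, called the core, had 44 members, with 11 and 13 in BPTES and 8 and 12 in DMSO. Core members had fewer than 20 UMIs of Malat1 and of Scgb3a1 and no marker set of another cell type. Scgb1a1 made up a median of 72.1% of their UMIs (22.2% to 79.6%). Scgb3a2, a secretoglobin whose product is also secreted by club cells, lay between 5 and 580 UMIs. Cyp2f2, the cytochrome P450 that activates naphthalene in club cells, lay between 2 and 190 UMIs. The rule required both genes in members that lack Scgb3a1 and Muc5b, so their presence is no finding. Of the 6 ciliated markers, which the rule limited, Foxj1 and Tmem212 were at 0 UMIs in the core, and the list summed to 7 and 2 UMIs in BPTES and 1 and 4 in DMSO. The 4 basal markers Krt5, Trp63, Krt14 and Ngfr were at 0. Muc5ac, Spdef, Tff2 and Gp2, 4 of 6 goblet markers, were also at 0.

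A second kind, of 8 members, was set apart by at least 20 UMIs of Scgb3a1, a secretoglobin of the larger airways. They held 83 to 4090 Scgb3a1 UMIs, while the other 55 members had 0 to 2. DMSO replicate 1 held 6 of the 8, BPTES replicates 1 and 2 held 1 each, and DMSO replicate 2 held 0 of 14, which allows a share of up to 21.4% of its members. Bpifa1, an antimicrobial and surface-active protein of nasal and tracheal secretions, was at 10 to 2534 UMIs in all 8. It reached 1 of the other 55 members, at 11 UMIs. Reg3g, an antibacterial lectin, was at 2 to 429 UMIs in all 8 and at 0 in the 55. One BPTES replicate 1 barcode alone held 4090 Scgb3a1, 429 Reg3g, 226 Bpifb1 and 65 Muc5b UMIs. It accounted for 64.8% of all Scgb3a1 UMIs in the members and 83.3% of those of Muc5b, the airway gel-forming mucin.

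DMSO replicate 1 allowed a comparison within a library, with levels in CPM (UMIs scaled to 1000000) of the UMIs other than Scgb1a1. Genes were picked largely by the size of this difference, after the values were seen. The intervals here and in the next paragraph cover counting error only, not the spread between barcodes. Its 6 Scgb3a1-rich members held 3763 Bpifa1 UMIs and its other 8 members held 0, which is at least 1635-fold higher against a floor of 3 counts over the 8. For Reg3g the counts were 128 and 0, for lactoferrin (Ltf) 113 and 0, and for the trefoil factor Tff2 95 and 0. For Scgb3a1 they were 2134 and 0, but this gene split the 6 from the 8, so its difference is no finding. The detoxifying enzymes Aldh3a1 and Sult1d1 were 26.7-fold (exact 95% counting interval 6.94 to 228) and 25.2-fold (8.21 to 126) higher in the 6, from 41 against 2 and 58 against 3 UMIs. Of the 113 Ltf UMIs, 108 lay in a single barcode, which also held 2534 of the Bpifa1 UMIs and 197 of Lyz2.

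Other genes were higher in the remaining 8 members of that library. Scgb1a1 made up 30.2% to 74.9% of UMIs in these 8 and 11.3% to 37.8% in the 6. Leaving it out raises the 8 relative to the 6, so the folds below would be smaller over all UMIs. Cxcl15, the lung chemokine lungkine, stood at 2959 against 46.7 CPM, 63.3-fold higher with an exact 95% counting interval of 17.2 to 527. The surfactant proteins Sftpb and Sftpa1 were 44.9-fold (12.2 to 375) and 24.6-fold (13.6 to 49.8) higher. Cldn10, a tight junction claudin of club cells, was 44.5-fold (7.68 to 1788) higher, and haptoglobin (Hp) 31.5-fold (16.4 to 69.5) higher. The counts in the 6 Scgb3a1-rich members were 2 for Cxcl15 and Sftpb, 1 for Cldn10, 9 for Hp and 11 for Sftpa1. Sftpc, the surfactant protein of alveolar type 2 cells, was at 0 to 2 UMIs in the 6 and at 0 to 30 in the 8.

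Scgb3a1, Bpifa1 and Reg3g lie on chromosomes 11, 2 and 6, and their promoters are shown because the 3 genes were found in the same 8 barcodes. Each line gives the 250 bases before the RefSeq gene start in GRCm38.p6, 5′ to 3′ on the gene's strand. Capitals mark matches, on either strand, to TNTTTNC (a core read by forkhead factors) and to TCAAG (a core read by NKX2-1). The windows are chr11:49663345-49663594 on the plus strand, chr2:154142630-154142879 on the plus strand and chr6:78468875-78469124 on the minus strand.
Scgb3a1: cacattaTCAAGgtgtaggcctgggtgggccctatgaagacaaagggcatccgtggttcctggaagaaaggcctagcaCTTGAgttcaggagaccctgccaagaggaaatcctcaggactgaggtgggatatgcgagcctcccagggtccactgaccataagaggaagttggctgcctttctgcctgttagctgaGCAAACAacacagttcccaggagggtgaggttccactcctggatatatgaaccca
Bpifa1: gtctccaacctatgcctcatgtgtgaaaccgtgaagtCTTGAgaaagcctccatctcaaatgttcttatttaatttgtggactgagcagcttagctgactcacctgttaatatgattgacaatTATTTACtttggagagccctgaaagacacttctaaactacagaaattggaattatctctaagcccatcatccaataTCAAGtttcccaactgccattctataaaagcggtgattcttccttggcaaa
Reg3g: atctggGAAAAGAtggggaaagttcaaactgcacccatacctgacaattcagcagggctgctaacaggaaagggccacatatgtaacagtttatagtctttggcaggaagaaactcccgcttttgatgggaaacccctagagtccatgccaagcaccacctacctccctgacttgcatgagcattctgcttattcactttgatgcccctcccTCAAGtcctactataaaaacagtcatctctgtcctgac
Each of the 3 windows held 1 match to TNTTTNC. Scgb3a1 and Bpifa1 held 2 matches each to TCAAG and Reg3g held 1. Of 32851 promoter windows of the same length, 48.1% held TNTTTNC and 35.9% held TCAAG, so these matches are common and describe the letters only.

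The remaining kinds carried markers of another cell type. The alveolar type 2 set (at least 2 UMIs of 2 or more of Lamp3, Slc34a2, Etv5 and Abca3) was found in 5 members, 3 of BPTES replicate 2 and 2 of DMSO replicate 2. They held 2565 to 14288 Sftpc UMIs and only 32 to 361 Scgb1a1 UMIs. The fibroblast set (at least 2 UMIs of 2 or more of Col1a1, Col1a2, Col3a1, Dcn and Pdgfra) was found in 5 members, 2 in BPTES replicate 1 and 3 in BPTES replicate 2, against 0 of 14 in each DMSO library, which allows up to 21.4% of the members of each, by counting error only. These 5 held 40 to 6307 Scgb1a1 UMIs, 38 to 126 UMIs of Prkg1 and 0 of Epcam. Malat1 was at 314 to 1338 UMIs in these 10 members, and they showed 1054 to 1392 genes at 2500 UMIs, more than the median of the members of any library. Whether they were single cells or droplets with RNA of more than 1 cell was not tested, and no doublet caller was run. One further BPTES replicate 2 barcode, with 34 Scgb1a1, 273 Cyp2f2, 432 Malat1 and 3 Krt5 UMIs, belonged to none of the 4 kinds.

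**Figure D3:**
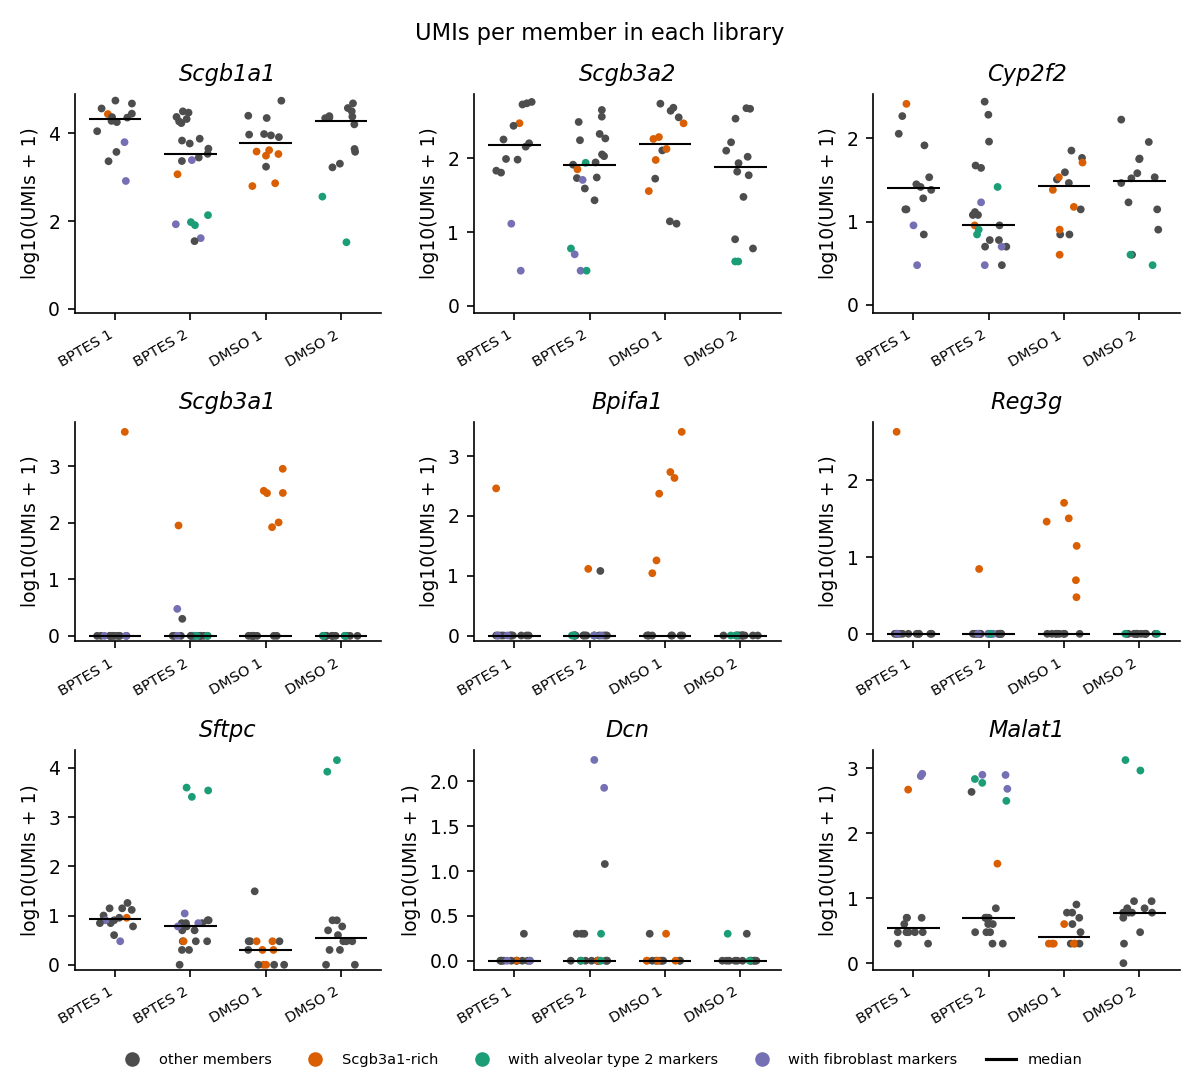
UMIs per member on a log10(UMIs + 1) scale for 9 genes, by library, with colour for the kind of member and a bar at the median. Scgb3a1, Bpifa1 and Reg3g are high in the 8 Scgb3a1-rich members, 6 of them in DMSO replicate 1, while Sftpc is high in 5 and Dcn in 2 members with markers of another type.

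The core's other abundant genes included secreted proteins and detoxifying enzymes. Levels are again CPM of UMIs other than Scgb1a1, as mean ± SD over 4 libraries, and comparisons between classes are descriptions. Leaving out Scgb1a1, which made up most core UMIs, raises every other core gene relative to the other classes, so changes of order on the scale of all UMIs are given. Cbr2, the lung carbonyl reductase, reached 37124 ± 8449, against 5147 ± 695 in ciliated and 3248 ± 110 in alveolar type 2 barcodes, and it was not part of the rule. Cyp2f2, a gene of the rule, reached 5034 ± 622, against 1397 ± 196 and 44.9 ± 8.01. Per all UMIs, Cyp2f2 lay between 1263 and 1649 CPM in the core and between 1273 and 1686 in ciliated barcodes, so the 2 classes overlapped. Scgb3a2, also of the rule, reached 27064 ± 6584, against 30.2 ± 12.3 and 1.11 ± 0.702. On both scales Cbr2 was higher in every library of the core than in any ciliated or alveolar type 2 library.

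The glutathione-linked enzymes differed in their order between classes. Mgst1, a microsomal glutathione transferase, stood at 4986 ± 1085 in the core, against 367 ± 63.9 in ciliated and 513 ± 32.8 in alveolar type 2 barcodes. Gsta3, a cytosolic glutathione transferase, stood at 1267 ± 305, against 60.3 ± 28.9 and 56.6 ± 13.2. Prdx6, a peroxidase that uses glutathione, stood at 5802 ± 2683, with 9700 in DMSO replicate 1 and 3559 to 4987 in the other libraries. Gstm1 stood at 2199 ± 47.5 against 1411 ± 153 in ciliated barcodes, but per all UMIs the order turned, with 614 to 704 CPM in the core and 1229 to 1599 in ciliated barcodes. For Mgst1, Gsta3 and Prdx6 the core was the higher on both scales.

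Cldn10 and Gabrp were rare in ciliated and alveolar type 2 barcodes. Cldn10 stood at 809 ± 217, against 1.79 ± 0.292 in ciliated and 0.160 ± 0.115 in alveolar type 2 barcodes. Gabrp, a subunit of a receptor for gamma-aminobutyric acid, stood at 352 ± 138, with 11 to 49 UMIs per library, against 0.392 ± 0.265 and 0.314 ± 0.377. Pon1, a paraoxonase, stood at 735 ± 47.5, against 2.29 ± 0.530 in ciliated and 54.1 ± 10.4 in alveolar type 2 barcodes, and its 4 libraries lay between 675 and 789. Retnla, a secreted resistin-like protein, varied between libraries, with 1429 in BPTES replicate 1 and 375 to 537 in the other 3. A single core member of BPTES replicate 1 held up to 95 Retnla UMIs, while the median member there held 1.

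The core also carried surfactant genes that were higher in alveolar type 2 barcodes, with little of Sftpc. Sftpa1 stood at 7898 ± 1379 and Sftpb at 2491 ± 374, against 21721 ± 891 and 11062 ± 119 in alveolar type 2 barcodes and 106 ± 155 and 58.4 ± 73.8 in ciliated ones. Sftpc stood at 622 ± 209, against 164423 ± 2206 in alveolar type 2 barcodes and 725 ± 1131 in ciliated ones, where BPTES replicate 1 alone stood at 2417 and the other libraries between 91.3 and 260.2. Core members held a mean of 9, 3.77, 4.63 and 2.83 Sftpc UMIs in BPTES replicates 1 and 2 and DMSO replicates 1 and 2, and endothelial barcodes 4.13, 3.08, 1.25 and 2.18. Fos, an immediate early gene, stood at 161 ± 109 in the core against 1886 ± 248 in ciliated and 1352 ± 133 in alveolar type 2 barcodes. These barcodes also held little Malat1, 454 ± 155 against 15084 ± 577 in ciliated barcodes, and its part in the low Fos was not tested.

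The share of secretory barcodes did not differ between BPTES and DMSO lungs beyond the spread between libraries, which does not show that the shares were equal. They made up 0.123% (95% Wilson interval 0.0736% to 0.207%) and 0.186% (0.122% to 0.285%) of CD45-low barcodes in BPTES, and 0.133% (0.0794% to 0.224%) and 0.101% (0.0603% to 0.170%) in DMSO. CD45-low means at most 1 Ptprc UMI, and the intervals cover counting error only. The means were 0.155 ± 0.0445% and 0.117 ± 0.0227% (SD, n = 2 each), and an exact two-sided permutation test gave p = 0.667, where the smallest p possible is 0.3333. The groups overlapped. The 2 narrower counts separated the groups in opposite directions, at the smallest p possible. Among epithelial barcodes, counting only the members that met the epithelial test (8 and 10 in BPTES, 6 and 8 in DMSO), the order turned, with 1.60 ± 0.143% in BPTES and 2.42 ± 0.473% in DMSO (exact permutation p = 0.3333), and the BPTES libraries held more epithelial barcodes in all (533 and 587 against 218 and 384). Core members alone made up 0.0970% and 0.115% in BPTES and 0.0762% and 0.0867% in DMSO (exact permutation p = 0.3333).

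**Figure D4:**
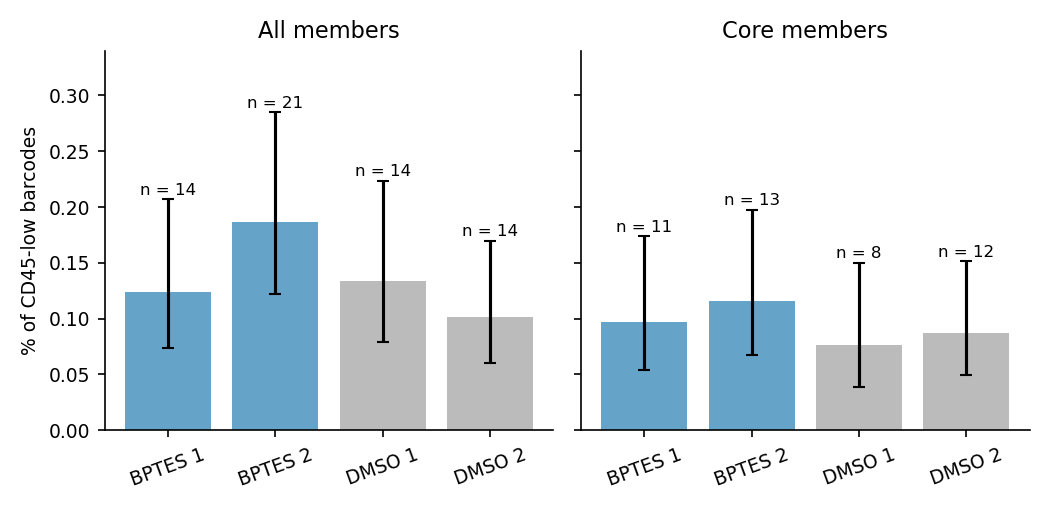
Percent of CD45-low barcodes that were members (left) or core members (right) in each library, with 95% Wilson intervals as error bars and the number of members above. The intervals of all 4 libraries overlap in both panels.

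BPTES was compared with DMSO on UMIs summed per library over all members, with edgeR's quasi-likelihood test. No gene of 3349 tested was called at an adjusted p under 0.05 (0%), while 388 (11.6%) had an unadjusted p under 0.05 and 1342 (40.1%) had groups that did not overlap. DESeq2 called 89 (2.66%), all higher in BPTES. A median of 94.5% of the member UMIs of these genes lay in the 5 members with fibroblast markers. Leaving out single libraries gave 115 calls without BPTES replicate 1, 34 without BPTES replicate 2, 277 without DMSO replicate 1 and 1 without DMSO replicate 2. Each of these fits has a group of 1 library, which is assumed to vary like the other group.

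The genes with the smallest unadjusted p lay in the 5 members with fibroblast markers, all of them from BPTES. Prkg1, a protein kinase of smooth muscle and stroma, had 201 and 136 UMIs in BPTES and 1 and 1 in DMSO (log2 fold change 6.60, approximate SE 0.85), with 97.3% of its UMIs in those 5 members. Ltbp1, which binds latent TGF-beta in the matrix, had 63 and 95 UMIs against 0 and 0, with 98.7% in them. Gsn, the actin-severing protein gelsolin, had 284 and 1008 against 8 and 16, with 93.2% in them. Cacnb2 and Colec12 followed, with 94.8% and 97.8% in them. All 5 genes had an edgeR adjusted p of 0.0661. Of the 373 genes higher in BPTES at an unadjusted p under 0.05, 304 had more than 50% of their UMIs in the same 5 members, against 448 (13.4%) of all 3349 genes tested. Those members held 9.09% of all member UMIs and 15.8% of those from BPTES. As all 5 were from BPTES, genes concentrated in them could pass the low-count filter through the BPTES libraries alone. The direction of such genes therefore follows from where these members lay and is no separate result. Without members holding markers of another type, 1302 genes were tested.

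Genes at the other end lay partly in the 5 members with alveolar type 2 markers, 2 of them from DMSO replicate 2 and 3 from BPTES replicate 2. Sftpd, a surfactant collectin, had 105 and 183 UMIs in BPTES and 82 and 569 in DMSO (log2 fold change -1.67, approximate SE 0.66, edgeR adjusted p = 0.389). The log2 fold change ran from -2.38 to -0.69 with a library left out. Of the Sftpd UMIs, 65.8% lay in alveolar type 2-marked members. In the core, which holds none of these, Sftpd stood at 834 and 362 CPM of UMIs other than Scgb1a1 in BPTES and 1434 and 1092 in DMSO (log2 fold change -1.05), and it was not called. Chia1, an acidic chitinase, had 5 and 12 against 6 and 62 UMIs, with 77.6% in them. Cd14, Car8 and 8430408G22Rik, with 58.9%, 57.7% and 37.4% in them, completed the 5 that were lower in BPTES by the naming rule. None of them was called. For 8430408G22Rik the log2 fold change was -1.47 with all members and -1.34 without other-type members.

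Without the 10 members holding markers of another type, 4 genes of 1302 were called (0.307%), and single barcodes held most of their UMIs. Malat1 had 496 and 505 UMIs in BPTES and 36 and 55 in DMSO (log2 fold change 3.08, approximate SE 0.29, edgeR adjusted p = 0.00193). Of these, 469 and 432 lay in 1 barcode of each BPTES library. Alcam, an adhesion molecule, and Mecom, a zinc finger regulator, were also higher in BPTES. Alcam had 98 of 109 and 60 of 95 UMIs, and Mecom 45 of 49 and 39 of 46, in 1 barcode per library. For Malat1, Alcam and Mecom it was the same barcode in each library, so these calls are not separate results. They were the Scgb3a1-rich barcode of BPTES replicate 1 and the BPTES replicate 2 barcode that belonged to none of the kinds. Lyz2, the lysozyme of alveolar type 2 cells and macrophages, was lower in BPTES, with 48 and 29 UMIs against 222 and 212 (log2 fold change -2.91, approximate SE 0.24, edgeR adjusted p = 0.00143). Of the Lyz2 UMIs, 197 and 205 lay in 1 barcode of each DMSO library. With the core alone, 0 of 1053 genes were called by edgeR (0%), 69 (6.55%) had an unadjusted p under 0.05, and 396 (37.6%) had groups that did not overlap.

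The genes of the rule are given as values with no test, since they chose the members. Scgb1a1 made up 61.2% and 38.3% of member UMIs in BPTES and 61.5% and 52.9% in DMSO (log2 fold change -0.40 with all members and -0.20 in the core). Cyp2f2 had 801 and 772 UMIs in BPTES and 379 and 540 in DMSO (log2 fold change 0.01). Scgb3a2 had 3062 and 2476 against 2969 and 1938 (log2 fold change -0.76). For these 3 genes the groups overlapped with all members on the CPM of the fit, which uses TMM library sizes. Cyp2f2 stood there at 1923 and 1282 CPM in BPTES and 1896 and 1289 in DMSO, while its summed UMIs did not overlap. Scgb3a1 had 4090 and 92 UMIs against 2134 and 0, and Muc5b 65 and 3 against 10 and 0, so single libraries held most of the UMIs of both genes.

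**Figure D5:**
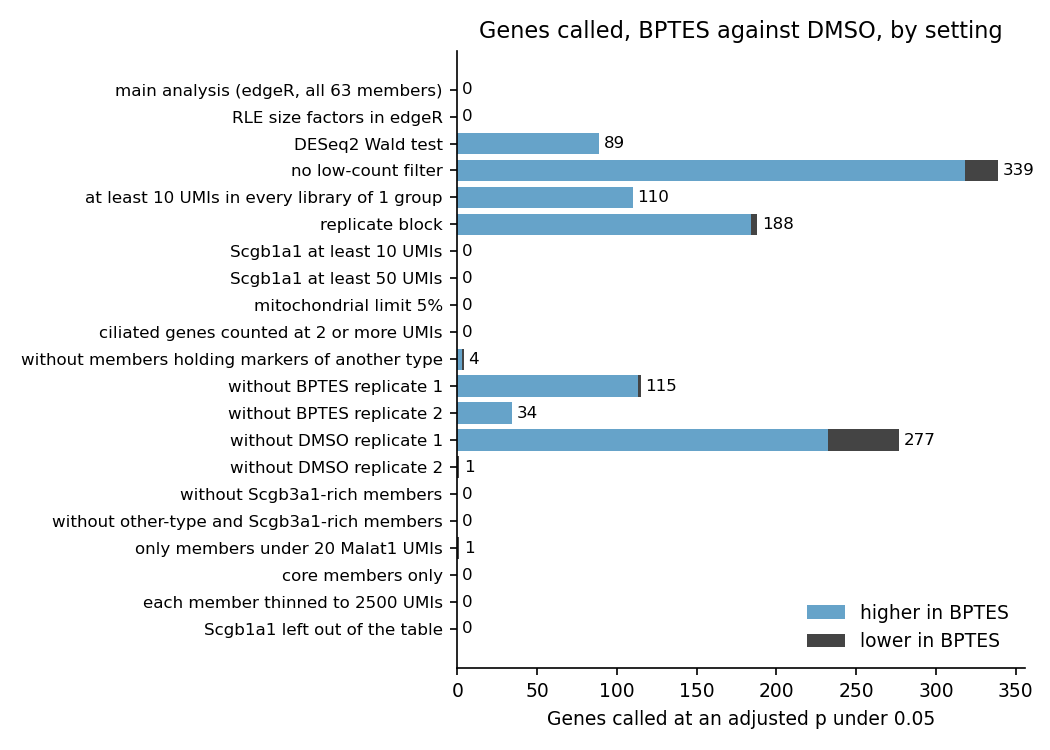
Number of genes called at an adjusted p under 0.05 for BPTES against DMSO under each setting, split by direction. The main analysis called 0, and the counts under other settings ran from 0 to 339, mostly higher in BPTES. The number of genes tested differed between settings.

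The 15 gene lists were read without the genes of the membership rule and against all genes tested, whose median log2 fold change was 0.00 with all members and -0.02 in the core. No list gene was called in either set, where 0 of 3349 and 0 of 1053 genes were called in all. At an unadjusted p under 0.05, 11.1% of all genes were higher and 0.448% lower in BPTES with all members, and 2.85% higher and 3.70% lower in the core. The 11.1% includes the genes concentrated in the fibroblast-marker members of BPTES, so it is an uneven background for the lists. The secreted airway proteins had 14 of 22 genes tested with all members (median -0.61), 1 of them lower at that p, Sftpd. In the core 8 were tested (median -0.10), with 2 lower, Sftpd and Wfdc2, a secreted protease inhibitor. Wfdc2 stood there at 9196 and 6680 CPM of UMIs other than Scgb1a1 in BPTES and 11386 and 10950 in DMSO.

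Xenobiotic and glutathione enzymes held no called gene, as was so for all 3349 genes tested with all members and all 1053 in the core. Phase I enzymes had 14 of 25 tested with all members (median -0.14, 2 higher and 0 lower at an unadjusted p under 0.05), and 10 in the core (median -0.04, 1 and 2). Phase II enzymes had 13 of 22 tested (median -0.52), and 11 in the core, with a median of -0.54 and 0 higher and 3 lower (27.3%, against 3.70% of all core genes). Gstm2 was at 994 and 771 CPM in BPTES and 1596 and 1621 in DMSO in the core; these groups did not overlap, as was so for 37.6% of all genes tested there. Glutathione and NRF2 genes had 16 of 21 tested (median -0.53), and 15 in the core (median -0.06, 0 and 1). Antigen presentation genes had 9 of 15 tested (median -0.49), and 3 in the core (median 0.08).

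Of 28 genes of glutamine metabolism, 11 were tested with all members (median 0.14, 0 higher and 0 lower at an unadjusted p under 0.05). Glul, glutamine synthetase, had 34 and 78 UMIs in BPTES and 19 and 33 in DMSO (log2 fold change 0.29, approximate SE 0.54). In the core only Oat, ornithine aminotransferase, and Glul were deep enough to be tested, with 83 and 55 UMIs over 4 libraries. An effect on the other genes was not detectable at this depth.

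Stress and regulatory lists held few measured genes. The ATF4 list had 6 of 26 tested (median 0.23, 2 higher and 0 lower at an unadjusted p under 0.05). In the core 3 were tested (median 0.25, 1 higher, Cebpb, and 0 lower), and the highest of them was Nupr1, a stress-induced chromatin protein, at 1749 and 1191 CPM in BPTES and 1972 and 2051 in DMSO. Airway identity regulators had 11 of 22 tested (median -0.25, 2 and 0), and 4 in the core, where the median turned to 0.07 (1 and 0). Nkx2-1, the lung lineage factor, had 42 UMIs in the core. Heat shock chaperones had 10 of 13 tested (median 0.63) and immediate early genes 16 of 21 (median 0.70), neither with a member at an unadjusted p under 0.05. In the core their medians were 0.31 over 6 genes and 0.15 over 5, with 1 chaperone higher, Hspa8, and 1 immediate early gene lower, Fos, at that p. Fos in the core was at 88.8 and 58.4 CPM in BPTES and 197 and 298 in DMSO; these groups did not overlap either, against the same background of 37.6%.

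The other lists were sparser still. Epithelial cytokines had 5 of 20 tested (median -0.76), circadian clock genes 4 of 18 (median -0.39), type I interferon genes 2 of 22 (median 0.60) and cell cycle genes 2 of 18 (median -0.02). The senescence list had 1 of 24 tested, Igfbp7, a secreted binding protein also made by stroma and endothelium, with a log2 fold change of 3.24 that was not called. That value includes the members with fibroblast markers, all from BPTES. No gene of this list was tested without other-type members or in the core, where Igfbp7 had 17 UMIs. Cdkn2a had 1 UMI and Cdkn2b 2 UMIs in all members. Cdkn1a, the cell cycle inhibitor p21, had 2 and 24 UMIs in BPTES and 0 and 3 in DMSO, all in members outside the core. Mki67, a proliferation marker, had 0 of 1678354 UMIs, which allows up to 1.79 CPM.

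The effect of BPTES in members was set against that in alveolar type 2 and ciliated barcodes of the same libraries with an interaction test that kept library as a block. Against alveolar type 2 barcodes, 70 genes of 13178 differed (0.531%), and against ciliated barcodes 20 (0.152%), all with the larger effect in members. Slit2, a guidance protein, Gpx3, a secreted peroxidase, and Pdgfra, a growth factor receptor of fibroblasts, were called in both comparisons. They were picked as examples after their values were seen. Pdgfra belongs to the marker set that chose the 5 fibroblast-marker members, so its UMIs lie there in part by that choice. In all 70 and all 20, more than 50% of member UMIs lay in the 5 fibroblast-marker members, with medians of 91.7% and 92.3%. Without the members holding markers of another type the counts were 10 and 14, and with the core alone 0 and 5.

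The 5 genes that differed from ciliated barcodes in the core were Sftpd, Cxcl15, Lyz2, Sftpb and Sftpa1. Of these, Sftpa1, Sftpb and Cxcl15 stood in the core itself at means of 7898, 2491 and 3355 CPM of UMIs other than Scgb1a1. Of the 212 Lyz2 UMIs of the DMSO replicate 2 core, 205 lay in 1 barcode, and the DMSO replicate 1 core held 5. For Sftpa1 and Sftpb the ciliated groups did not overlap and the core groups did. Sftpa1 stood in ciliated barcodes at 337 and 56.5 CPM in BPTES and 12.4 and 19.8 in DMSO, while in the core it stood at 8930 and 7159 in BPTES and 6329 and 9175 in DMSO. Sftpb showed the same order, with 165 and 50.3 against 5.96 and 12.1 in ciliated barcodes and 2361 and 2990 against 2098 and 2514 in the core. Sftpd stood at 45.7 and 34.1 CPM in BPTES against 7.34 and 4.95 in DMSO in ciliated barcodes, and had the opposite order in the core as given above, where it was not called. Few ciliated barcodes carried much alveolar RNA: in BPTES replicate 1 the median was 7 Sftpc UMIs and the mean 85.2, with 2 of 95 barcodes at 20 or more. Alveolar RNA outside alveolar cells moved the same way as the ciliated values: endothelial barcodes held a mean of 4.13 and 3.08 Sftpc UMIs in BPTES and 1.25 and 2.18 in DMSO, and alveolar type 2 barcodes numbered 405 and 410 against 119 and 246. The part of this in the differences was not tested.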

How the data were processed

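The deposited files were UMI count matrices, 1 per library, from GEM-X Single Cell 3' v4 libraries. Per the file headers and the submitters' processing notes they were made by the authors with Cell Ranger 8.0.1, and per the same notes on genome build mm10. Other upstream settings are not given in the sources used here. The matrices hold 3' end counts without regard to gene length. Reference positions and promoter windows came from RefSeq tables of GRCm38.p6, and 3 of the genes shown had a promoter window printed.

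Members were found by the stated rule, and the members and gene lists were chosen with earlier results of these data known. The members' counts were added up in each library. R 4.3.3 with edgeR 4.0.16 gave the quasi-likelihood test (filterByExpr, TMM factors, Benjamini-Hochberg adjustment over all genes tested); DESeq2 1.42.0 was an alternative. CPM values in that fit use TMM library sizes. Standard errors are approximate, from the fold change and the F statistic. Simulated data with the members' common dispersion for every gene left 2783 genes to test. The test recovered 26.3% of the genes changed by a log2 size of 2 and 72% of those changed by 3. It also called 4 unchanged genes. The changed genes were drawn only from those with higher counts, and no concentration of UMIs in single barcodes was simulated. Recovery was therefore not measured for the sparser genes. Library sums differed with an edgeR biological coefficient of variation of 0.499. Lists were counted without the genes of the membership rule. Replicate numbers pair the groups only by name.

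Named genes were the called genes with groups that did not overlap and a mean of at least 10 CPM, up to 10 per direction; where fewer than 5 were called, up to 5 with the smallest unadjusted p, no overlap and at least 50 CPM; the rule's genes; the highest members of each list; Glul, Cdkn2a, Cdkn1a, Cdkn2b and Mki67; and genes of at least 100 CPM with the highest ratio to other classes. Some of those last genes and some list members are not described, and 1 further gene of this naming rule, not a gene of the membership rule, is not reported here. Plots used matplotlib 3.10.9 in Python 3.11.15.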

Additional observations from a re-analysis of the deposited data

Results flagged for a closer look

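The BPTES effect in members differed from that in alveolar type 2 barcodes for 70 genes and from that in ciliated barcodes for 20, by edgeR's interaction test at an adjusted p under 0.05. Among the genes named in the report, the log2 difference of effects against alveolar type 2 barcodes was 6.94 for Prkg1, 6.998 for Cacnb2 and 4.46 for Gsn, and against ciliated barcodes 4.57 for Gsn. Each of these genes had more than 90% of its member UMIs in the 5 members with fibroblast markers, all from BPTES libraries. Without the members holding markers of another type, 10 genes differed from alveolar type 2 barcodes and 14 from ciliated barcodes, and none of Prkg1, Cacnb2 and Gsn was among them.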

How the results depend on the processing

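The BPTES against DMSO comparison called 0 genes with all members, and 0 with RLE size factors, with limits of 10 or 50 Scgb1a1 UMIs, a 5% mitochondrial limit, ciliated genes counted at 2 UMIs, without Scgb3a1-rich members, without these and other-type members, in the core, with members thinned to 2500 UMIs and without Scgb1a1. It called 89 with DESeq2 (2.66% of 3349), 339 with no low-count filter and 110 with at least 10 UMIs in every library of 1 group. It called 4 without other-type members (0.307% of 1302) and 1 (Lyz2) with members under 20 Malat1 UMIs. Settings tested different numbers of genes, here and for the differences of effect below, so the counts do not compare call rates. The replicate block called 188; the labels tie the numbers to no shared animal or batch, and deviations of the first replicates correlated at r = 0.491 over 3349 genes with 2 pairs. Leaving out 1 library gave 1 (Ltf, without DMSO replicate 2) to 277 (without DMSO replicate 1), fits in which the lone library of a group is assumed to vary like the other group. The alternatives on members and weights were chosen after seeing the data, except those on other-type markers, Scgb1a1, mitochondrial and ciliated limits.

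The difference from alveolar type 2 barcodes called 492 with no filter, 131 with RLE, 10 without other-type members, 0 in the core and 2 to 57 without 1 library. The difference from ciliated barcodes called 44 without the library block, 427 with no filter, 59 with RLE, 14 without other-type members, 5 in the core and 1 to 7 without 1 library. The share difference of BPTES minus DMSO was -0.816 percentage points over epithelial barcodes, -0.00377 with members under 20 Malat1 UMIs and 0.00625 to 0.0692 without 1 library.

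Of the alternatives for single genes, 213 kept direction and side of the threshold, 39 passed it and 20 changed sign; none of the causes was tested. Cyp2f2 had log2 fold changes of -0.051 with RLE and -0.051 with DESeq2, -0.10 with the 10-UMI filter, -0.21 with 50 Scgb1a1 UMIs, -0.17 without Scgb3a1-rich members, -0.062 in the core, -0.011 without Scgb1a1 and -0.47 to 0.29 without 1 library. Scgb1a1 had 0.076 under 20 Malat1 UMIs and -1.35 to 0.12 without 1 library, and Scgb3a2 -1.47 to 0.25. Scgb3a1 had 1.68 with the replicate block, 0.42 without other-type members and -5.30 to 14.29 without 1 library. Glul had -0.15 with 10 Scgb1a1 UMIs, -0.45 under 20 Malat1 UMIs, -0.21 in the core and -0.067 to 0.42 without 1 library. With 63 members, 3349 of 31054 genes were deep enough to be tested.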
